A study of Mus musculus with 6 samples.

Results

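The cells described here are postnatal mouse retinal cells that carry RNA of the glycine transporter Slc6a9 together with RNA of a Tfap2 transcription factor, a combination proposed for glycinergic amacrine cells. They were chosen by their unique molecular identifiers (UMIs, each an RNA molecule counted once): at least 1 UMI of Slc6a9, at least 1 of Tfap2a or Tfap2b, and 0 UMIs of Gad1, Gad2, Chat, Slc18a3, Rlbp1 and Mki67. This choice found 226 cells among the 39423 cells of P0, P3 and P6 that had 300 to 6000 genes and at most 15% mitochondrial UMIs. The 6 libraries of the series are live cells sorted from papain-dissociated neurosensory retina of wild type C57BL/6J mice, and P3 has 2 of them, while the other ages (E14, E16, P0 and P6) have 1. No library carries a treatment, a transgene or a deletion. Several retinas were pooled for each age, so a library is the sample and animals cannot be told apart. P0 gave 15 members, P3 replicate 1 gave 103, P3 replicate 2 gave 32 and P6 gave 76, and lists of 4 values below follow that order. Most of the 226 cells also carried RNA of photoreceptor transcription factors, so the data go against the proposed name for most of them, and they are called the Slc6a9 and Tfap2 cells, or members.

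Amacrine cells are inhibitory interneurons of the inner retina, and most release either GABA or glycine. Glycinergic amacrine cells take up glycine through Slc6a9 (GlyT1), load it into vesicles through Slc32a1, which also carries GABA, and mostly have small dendritic fields that link layers of the inner plexiform layer. The AP-2 factors Tfap2a and Tfap2b mark amacrine and horizontal cells, and Ptf1a and Prdm13 act in the precursors of amacrine cells. Slc6a9 is not restricted to these neurons, since glial cells also use this transporter.

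Slc6a9 lies at chr4:117834506-117875198 on the plus strand of GRCm38 in the GENCODE annotation, Tfap2a at chr13:40715302-40738376 on the minus strand and Tfap2b at chr1:19208914-19238576 on the plus strand. The promoter windows printed here run from 250 bases before to 50 bases after a RefSeq start on GRCm38.p6. They are shown because the results turn on the transporter of the rule, on Lamp5, a subtype marker that was higher in members than in other cells with Tfap2b, and on Crx, a photoreceptor factor that many members carried. RefSeq gives 3 starts for Slc6a9, and the window of start 3 is chr4:117855297-117855596 (plus strand), with capitals at a match to GCCNNNNGGC, a core bound by AP-2 factors. RefSeq gives 2 starts for Lamp5, and the window of start 1 is chr2:136052089-136052388 (plus strand), with capitals at TAATCC, a core bound by CRX and OTX2, and at GCCNNNGGC, the other AP-2 core searched. The Crx window is chr7:15879906-15880205 (minus strand, printed as transcribed), with capitals at 2 copies of GGATTA, the reverse complement of TAATCC.
Slc6a9, start 3: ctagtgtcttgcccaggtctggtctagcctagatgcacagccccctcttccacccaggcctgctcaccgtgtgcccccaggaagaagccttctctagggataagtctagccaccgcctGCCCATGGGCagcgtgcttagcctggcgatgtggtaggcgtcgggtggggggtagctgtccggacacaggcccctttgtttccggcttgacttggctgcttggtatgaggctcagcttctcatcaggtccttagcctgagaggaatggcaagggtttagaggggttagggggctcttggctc
Lamp5, start 1: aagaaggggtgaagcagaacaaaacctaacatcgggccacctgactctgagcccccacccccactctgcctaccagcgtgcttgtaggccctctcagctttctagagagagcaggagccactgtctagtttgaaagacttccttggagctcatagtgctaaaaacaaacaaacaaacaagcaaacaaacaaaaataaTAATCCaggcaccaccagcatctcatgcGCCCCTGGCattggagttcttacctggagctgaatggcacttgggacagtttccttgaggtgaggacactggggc
Crx: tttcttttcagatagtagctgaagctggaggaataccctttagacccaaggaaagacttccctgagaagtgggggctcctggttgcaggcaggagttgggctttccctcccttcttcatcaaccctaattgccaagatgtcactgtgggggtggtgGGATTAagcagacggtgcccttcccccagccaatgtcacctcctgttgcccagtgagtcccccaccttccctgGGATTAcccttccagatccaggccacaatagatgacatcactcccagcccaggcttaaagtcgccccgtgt
The windows of the other 2 Slc6a9 starts, chr4:117835008-117835307 and chr4:117849100-117849399, held none of these letters, and neither did that of the other Lamp5 start, chr2:136057498-136057797. Read on both strands, TAATCC was found in 7.06% of 32851 mouse promoter windows of this length, GCCNNNGGC in 16.6% and GCCNNNNGGC in 14.8%, so a match is a description of the letters only.

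The kept postnatal cells held 28054160 to 66621686 UMIs per library, with medians of 4003.5 to 6010 UMIs per cell, and the members had medians of 5746, 3807, 6331.5 and 4522 UMIs. P3 replicate 2 stood apart: it was counted on an older annotation, and its cells more often held RNA of markers of another cell type, in cells that were also deeper. Its shallowest kept cell had 3477 UMIs, against 511, 500 and 500 in P0, P3 replicate 1 and P6. Shallower cells, which the other postnatal libraries kept, were thus absent from it. In that library 46.0% of cells with a Nrl UMI also had a Tfap2a or Tfap2b UMI, against 19.6% in P0, 17.7% in P3 replicate 1 and 7.03% in P6, with a median of 8187.5 UMIs in these cells against 4262, 2837 and 2757. Of cells with 3 or more UMIs of Rlbp1, a Müller glia marker, 34.2% had a Slc6a9 UMI there, against 8.33%, 2.19% and 3.46% in P0, P3 replicate 1 and P6. These cells had a median of 20539 UMIs there against 6680, 6281 and 6453.5, and Slc6a9 stood at 24.5 CPM (interval 17.3 to 33.8) against 3.67 CPM in P3 replicate 1 and 5.47 CPM in P6. In P0 this rested on 4 UMIs, with an interval of 2.18 to 20.5 CPM that overlaps that of P3 replicate 2. Since glial cells also use Slc6a9, its UMIs in cells with Rlbp1 need not be RNA of another cell type. The part of depth in these shares was not tested. No barcode of a member was shared between libraries, while up to 68 kept barcodes were. P3 replicate 2 shared 0, 0 and 1 kept barcodes with P0, P3 replicate 1 and P6, which shared 34 to 39 with one another. Intervals are exact 95% intervals and cover counting error only.

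The rule rested on few molecules per cell. Slc6a9 was detected in 236, 776, 482 and 1359 kept cells, and a Tfap2a or Tfap2b UMI was present in 80, 246, 264 and 162 of these. Leaving out cells with Rlbp1, Mki67, Chat or Slc18a3 left 63, 195, 56 and 142, and leaving out cells with Gad1 or Gad2, the enzymes that make GABA, left the members. Just inside the threshold, 14 of 15, 95 of 103, 29 of 32 and 59 of 76 members had a single Slc6a9 UMI. A single Tfap2 UMI was all that 5, 59, 12 and 54 members had, and 9, 31, 15 and 16 had 3 or more. Just outside it, 48, 92, 24 and 66 cells met every other condition but had a Gad1 or Gad2 UMI. The members made up 0.144% (interval 0.0807% to 0.238%), 0.837% (0.684% to 1.01%), 1.03% (0.704% to 1.45%) and 0.559% (0.441% to 0.699%) of kept cells. After thinning to 2000 UMIs a cell, which leaves out shallower cells, the share was 0.148% in P0 and 0.513%, 0.642% and 0.246% from P3 on. The P0 share thus stayed about the same, while the others were lower.

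The label was checked against Crx, Nrl and Otx2, transcription factors of photoreceptor precursors. At least 1 UMI of these was found in 5 of 15, 79 of 103, 27 of 32 and 57 of 76 members, or 168 of 226 in all (74.3%, interval 68.1% to 79.9%). When the members chosen on unthinned counts were thinned to 2000 UMIs, 148 of 208 carried one (71.2%), and 3 of 15 in P0. By library the unthinned share was 33.3%, 76.7%, 84.4% and 75.0% in members and 29.1%, 61.2%, 74.8% and 77.4% in all other kept cells. In P6 the members' share thus did not lie above that of the other cells. In other cells with Tfap2b it was 19.6%, 48.8%, 73.3% and 64.7%. It was 13.9%, 31.4%, 53.1% and 40.1% in GABAergic-gate cells, which have Gad1 or Gad2, a Tfap2 UMI and 0 UMIs of Slc6a9, Chat, Slc18a3, Rlbp1 and Mki67. Among members the share was lower with more Tfap2 UMIs: 119 of 130 members with 1 such UMI carried a photoreceptor factor (91.5%), 19 of 25 with 2 (76.0%) and 30 of 71 with 3 or more (42.3%). In P3 replicate 2, 11 of the 15 members with 3 or more Tfap2 UMIs still carried one, against 2 of 9 in P0, 14 of 31 in P3 replicate 1 and 3 of 16 in P6. The doublet caller marked 14 members of P3 replicate 1 (13.6%) and 17 of P6 (22.4%), all of them with Crx, Nrl or Otx2, and 0 in the other libraries, against 9.84% and 10.9% of all kept cells of P3 replicate 1 and P6. The part of doublets and of RNA from other cells in these shares was not tested. The 58 members without the photoreceptor factors numbered 10, 24, 5 and 19.

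**Figure D1:**
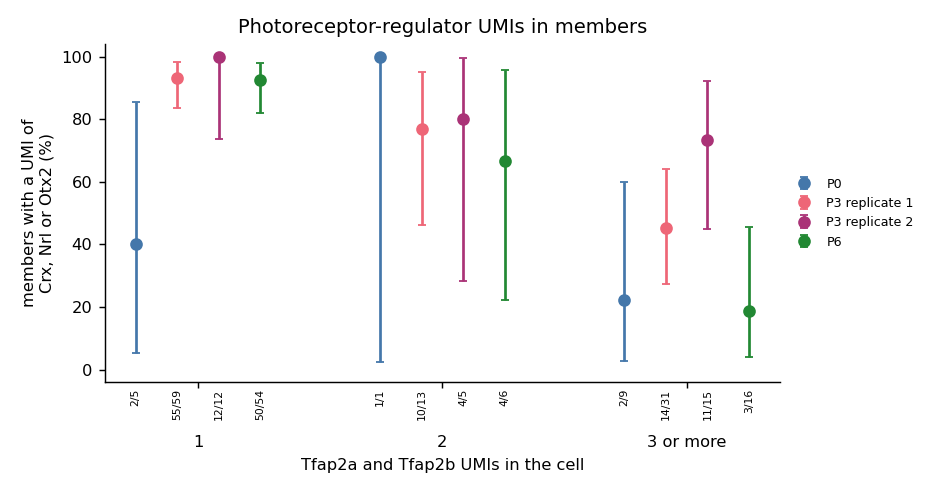
Share of members with at least 1 UMI of Crx, Nrl or Otx2 (vertical axis, percent) by the number of Tfap2a and Tfap2b UMIs in the cell (horizontal axis). Points are libraries, bars are exact 95% intervals and the printed fractions give cells with such a UMI over all cells. Over all libraries the share was 91.5% at 1 Tfap2 UMI and 42.3% at 3 or more, and P3 replicate 2 lies highest at 3 or more.

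Members with and without these factors differed in genes that define either lineage. This split was made after values had been seen, so its levels are given without a test, in CPM, the UMIs of a gene scaled to a fixed total of the summed cells' UMIs. Pax6, a factor that mature amacrine cells keep, stood at 1423, 1303, 962 and 1428 CPM in members without Crx, Nrl or Otx2. In members with them it stood at 1009, 235, 422 and 172 CPM, and in photoreceptor-gate cells, which have Nrl and 0 UMIs of Slc6a9, Tfap2a and Tfap2b, at 257, 143, 329 and 117 CPM. Members without the factors were higher in every library. Cell by cell, a Pax6 UMI was found in 10 of 10, 23 of 24, 5 of 5 and 18 of 19 members without the factors and in 4 of 5, 22 of 79, 24 of 27 and 9 of 57 with them. Nr2e3, the rod factor downstream of Nrl and no gene of the split, stood at 0, 1491, 1017 and 2769.7 CPM in members with the factors and at 0, 35.7, 32.1 and 75.2 CPM in those without. The photoreceptor gate had 628, 1732, 753 and 2370.3 CPM of Nr2e3, so from P3 on members with the factors lay near it. The 21 rod and cone markers summed to 673, 10176, 9485 and 14346 CPM in all members, 109, 133, 159.9 and 336 CPM in members without the factors and 7104, 13216, 7577 and 16443 CPM in the photoreceptor gate. That list holds Nrl and Crx, which the split sets to 0.

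Because most members had 1 Slc6a9 UMI and many had 1 Tfap2 UMI, the share of cells with Slc6a9 was set against the number of Tfap2 UMIs in all kept cells without Rlbp1, Mki67, Chat or Slc18a3. In cells without Gad1 or Gad2 that carried Crx, Nrl or Otx2, Slc6a9 was found in 9.27% of 4402 cells with 0 Tfap2 UMIs and in 8.76% of 628 cells with 1 in P3 replicate 1. At 2 and at 3 or more Tfap2 UMIs they were 10.3% and 16.9%, the last on 14 of 83 cells. In P6 the shares over the 4 bins were 12.3% of 7404 cells, 11.6% of 430 cells, 8.51% and 7.89%. In P0 they were 5.59% of 1395 cells, 2.13% of 94, 7.69% and 7.41%, and in P3 replicate 2 they were 10.9%, 12.8%, 13.8% and 9.57%. In P3 replicate 1 and P6 the share was thus no higher at 1 Tfap2 UMI than at 0 in these cells, which supplied 55 of the 59 members of P3 replicate 1 that had 1 Tfap2 UMI and 50 of the 54 of P6. In cells without Gad1, Gad2, Crx, Nrl or Otx2, the P3 replicate 1 share was 1.57% at 0 Tfap2 UMIs, 3.74% at 1, 10.0% at 2 and 7.76% at 3 or more. In P6 it was 7.25%, 17.4%, 13.3% and 19.4%. In P0 it was 0.845%, 2.31%, 0 of 40 cells and 2.69%, and in P3 replicate 2 it was 2.31%, 0 of 25 cells, 1 of 8 and 5.19%. In cells with Gad1 or Gad2 and no photoreceptor factor, the P3 replicate 1 share was 11.5%, 23.9%, 25.9% and 9.82% over the same bins, of 113, 46, 27 and 336 cells. In P6 it was 33.8% of 68 cells, 9 of 15, 3 of 12 and 19.8% of 91. At 3 or more Tfap2 UMIs the shares with and without Gad RNA thus lay close in both libraries. In P0 the share with Gad RNA was 3.13% of 383 cells, 0.826% of 121, 4.26% of 94 and 1.68% of 952 over the 4 bins, and in P3 replicate 2 it was 0 of 11, 0 of 4, 1 of 6 and 4.55% of 110. Photoreceptor-gate cells defined without regard to Slc6a9 (Nrl, no Tfap2a or Tfap2b) had a Slc6a9 UMI in 7.10%, 12.4%, 21.1% and 15.4% of cells, at 16.6, 36.3, 27.3 and 46.9 CPM. In P6 Slc6a9 was at 5.47 CPM in cells with 3 or more Rlbp1 UMIs and at 6.31 CPM in cells with Mki67, so its level differed between cell types there, and whether the UMIs in Nrl cells came from other cells was not tested. The gates differ in depth, and its part in these shares was not tested.

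**Figure D2:**
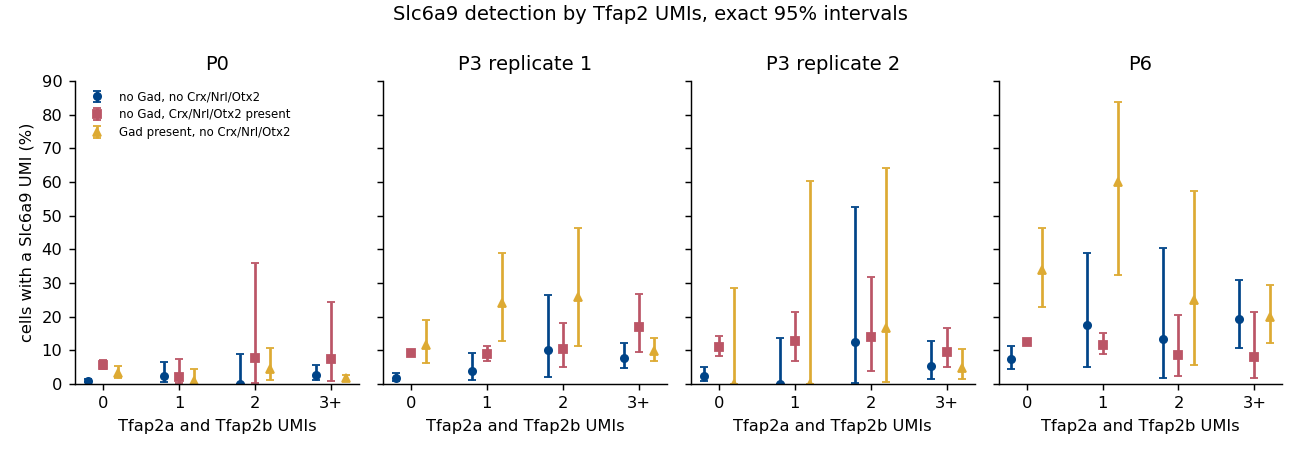
Percent of cells with at least 1 Slc6a9 UMI (vertical axis) by the number of Tfap2a and Tfap2b UMIs (horizontal axis), with a panel for each postnatal library and exact 95% intervals. The lines are cells without Gad1 or Gad2 and without Crx, Nrl or Otx2, cells without Gad1 or Gad2 that carry those factors, and cells with Gad1 or Gad2 and none of those factors. In P6 the cells with photoreceptor factors stay at 12.3% and 11.6% between 0 and 1 Tfap2 UMI, below the cells with Gad1 or Gad2.

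The UMI sums of the members were compared first with those of the 6785 other kept cells with Tfap2b, in the 3 libraries with at least 20 members (P0, with 15, was left out). A fold change is the members' level over the other cells', and it was tested by edgeR's quasi-likelihood test, blocked by library, with Benjamini-Hochberg adjustment over all genes tested. Of 11740 genes, 604 were higher in members (5.14%) and 939 lower (8%). Photoreceptor genes led those that were higher: the 12 named by size were Guca1a (2.44), Opn1sw (2.24), Pde6h (2.09), Rcvrn (1.96), Aipl1 (1.85), Fam161a (1.79), Rtbdn (1.70), Pde6g (1.67), Samd7 (1.66), Sag (1.66), Smim40 (1.65) and Gngt1 (1.64), as log2 fold changes. Guca1a encodes a guanylate cyclase activator, Opn1sw the short-wave cone opsin and Rcvrn recoverin. Of 20 rod and cone markers tested, 18 were higher and 0 lower, with a median of 1.57 beside -0.04 over all genes. Nr2e3 reached 0, 1127, 891 and 2208 CPM in members against 34.3, 316, 308 and 762 CPM, with the groups apart in each of the 3 tested libraries (log2 fold change 1.60 ± 0.10 (SE), adjusted p = 9.16e-14). Mitotic genes led those that were lower, among them Top2a (-3.71) and Cdk1 (-3.69), together with the progenitor gene Crym (-3.64). All 14 cell cycle markers tested and 14 of 16 Müller glia and progenitor markers were lower, but cells with Mki67 or Rlbp1 were barred from the members and not from the other cells, so the choice favours these 2 directions. Cells with Gad1, Gad2, Chat or Slc18a3 were barred in the same way. These bars leave a larger part for cell types they do not touch, photoreceptors among them, so higher photoreceptor genes are favoured too. The number of calls depended on the libraries used: 686 genes were called without P3 replicate 1, 1572 without P3 replicate 2 and 976 without P6, against 1543 with all 3. Without the library block 0 were called, with 1295 at an unadjusted p below 0.05.

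Genes of glycine and GABA handling were compared with other Tfap2b cells next, where 5.14% of all genes were higher in members and 8% lower. None of the 7 tested genes of glycine transport and receptors was called. Slc32a1, the vesicular carrier of both transmitters, stood at 40.1, 53.2 and 44.4 CPM in the tested libraries against 56.5, 38.7 and 47.4 CPM (log2 fold change -0.15 ± 0.24 (SE), adjusted p = 0.784). Slc6a5, the neuronal glycine transporter, gave 0, 4, 0 and 4 UMIs in members, too few to order against other Tfap2b cells. Of 5 tested genes of GABA synthesis and transport, 2 were lower and 0 higher, with the GABA transporter Slc6a11 (-1.97 ± 0.39 (SE), adjusted p = 0.000356) among them, and here too the bar on Gad1 and Gad2 favours that direction. Of 10 genes of glycine and serine metabolism, 4 were lower (Phgdh, Psat1, Gcsh and Shmt2), and Müller glia use Phgdh and Psat1 for serine synthesis. Among glutamate receptors, 3 of 16 were lower, led by Gria3 (-2.36 ± 0.45 (SE), adjusted p = 0.00022). Grik3 (1.55) was the 1 higher, near the share over all genes.

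Of 38 amacrine transcription factors, 7 were higher in members and 12 lower than in other Tfap2b cells, beside 5.14% higher and 8% lower over all genes. The higher ones were Neurod2 (1.29), Neurod1 (1.07), Ptf1a (0.80), Prdm13 (0.75), Ebf1 (0.74), Neurod4 (0.66) and Satb1 (0.66). Neurod2 stood at 22.6, 163, 131 and 57.5 CPM in members against 3.93, 57.8, 43.5 and 34.6 CPM, apart in all 3 tested libraries (1.29 ± 0.19 (SE), adjusted p = 3.01e-06). Pax6 was lower in members (1265, 501, 491 and 434 CPM against 1217, 672, 660.0 and 517 CPM in other Tfap2b cells, -0.41 ± 0.11 (SE), adjusted p = 0.00877). Lhx9 and Sox2, factors of GABAergic amacrine subtypes, were also lower (-2.47 and -2.72), though Sox2 also marks progenitors and glia, as were Isl1 (-1.62) and the progenitor factor Foxn4. Eomes was at 0 in the members of the tested libraries and is given no fold. Among 14 glycinergic subtype markers, Lamp5 (1.44 ± 0.19 (SE), adjusted p = 3.36e-07) and Ebf1 (0.74 ± 0.19 (SE), adjusted p = 0.00656) were higher, and Gria3 and Nfia (-0.63) were lower. Lamp5 stood at 0, 178, 85.9 and 115 CPM in members against 0.949, 66.1, 43.3 and 29.6 CPM, Ebf1 at 113, 78.0, 119 and 319 CPM against 46.2, 54.8, 126 and 115 CPM, and P3 replicate 2 was the library where Ebf1 did not separate. Of 10 markers of starburst and other GABAergic subtypes, 7 were lower and 0 higher, a direction that the choice favours, since cells with Gad1, Gad2, Chat or Slc18a3 were barred from the members and not from the other cells. Synaptic vesicle genes were higher in 12 of 39 and lower in 3, with Sv2b (1.37), Cplx4 (1.30), Stx3 (1.12) and Cplx3 (1.09) in front. Of these, Sv2b was at 91.2, 0, 32.1 and 25.1 CPM in members without photoreceptor factors and at 119, 211, 141 and 198 CPM in those with them. Genes of immature neurons were lower in 10 of 29, with Dcx (-1.93), Stmn2 (-1.02) and Gap43 (-0.80), and Dpysl3 was higher (0.47). Of 58 adhesion genes, 20 were lower and 6 higher, the latter including the cell-adhesion molecule Dscaml1 (1.47).

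The members were also compared with the 2243 GABAergic-gate cells, from which cells with Mki67 or Rlbp1 were barred as well. The gate is defined by Gad1 or Gad2 and the members by their absence, so lower levels of genes that go with these enzymes are favoured by the choice. Photoreceptors and other cells without these enzymes can enter the members but not the gate, so higher photoreceptor genes in members are favoured too. Against them 826 of 8245 genes were higher in members (10%) and 964 lower (11.7%). The 12 named genes that were higher were Fabp12 (3.33), Guca1a (3.19), Ppef2 (2.94), Opn1sw (2.94), Samd7 (2.90), Impg2 (2.76), Inhbb (2.73), Mak (2.72), Nxnl1 (2.67), Prom1 (2.67), Cacna2d4 (2.65) and Fam89a (2.65), many of them photoreceptor genes such as Impg2 of the interphotoreceptor matrix. The 12 that were lower were Tfap2e, a further AP-2 factor with 1 UMI in the members of the tested libraries, Pou3f3, with 1 UMI in each P3 library and 0 in P6, and AI593442 (-4.53), Cbln2 (-3.83), Lhx9 (-3.70), Lrrn3 (-3.61), Gria3 (-3.53), Plppr5 (-3.46), Ptprk (-3.44), Tenm1 (-3.32), Dcx (-3.31) and C1ql2 (-3.25). C1ql2 and Cbln2 encode secreted synaptic organisers, and Lrrn3 and Tenm1 membrane proteins of neurons. Without P3 replicate 1, 1098 genes were called in place of 1790, and without the library block 394.

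In this comparison 10% of all genes were higher in members and 11.7% lower, and the choice favours higher photoreceptor genes. Of 18 rod and cone markers, 17 were higher than in the GABAergic gate and 0 lower, with a median of 2.35 beside 0.00 over all genes. Crx, at 67.8, 345, 388 and 442 CPM in members and 18.9, 55.5, 91.8 and 146 CPM in the GABAergic gate (2.12 ± 0.17 (SE), adjusted p = 1.05e-08), and Nrl (2.43) were among them. Several amacrine factors were lower in members: Pax6 was at 1521, 1107, 995 and 942 CPM in the gate (log2 fold change -1.09 ± 0.09 (SE), adjusted p = 4.98e-08), and Barhl2 (-1.59), Meis2 (-1.01) and Lhx9 were lower in members too. In all 15 of 35 amacrine transcription factors were lower and 5 higher, the latter Neurod1 (1.56), Neurod4 (1.28), Nfib (0.99), Satb1 (0.80) and Neurod2 (0.65). Slc32a1 stood at 71.1, 120.1, 76.9 and 158 CPM in the gate and was lower in members (-1.41 ± 0.23 (SE), adjusted p = 0.000155), as was the glycine receptor subunit Glra2 (-1.41), and 3 of 4 tested genes of glycine transport and receptors were lower in all. Slc6a11 (-3.01) was lower, as were 4 of 6 GABA receptor genes, with Gabra3 and Gabra2 among them. Genes of immature neurons were lower in 26 of 27, among them Stmn2 (-2.28), Gap43 (-1.93) and Elavl4 (-2.75), ion channels in 14 of 26 and adhesion genes in 28 of 47. Of 13 glycinergic subtype markers, Nfib (0.99) and Lamp5 (0.91 ± 0.19 (SE), adjusted p = 0.00131) were higher, and Gria3, Synpr (-2.39) and Dner (-1.25) lower.

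**Figure D3:**
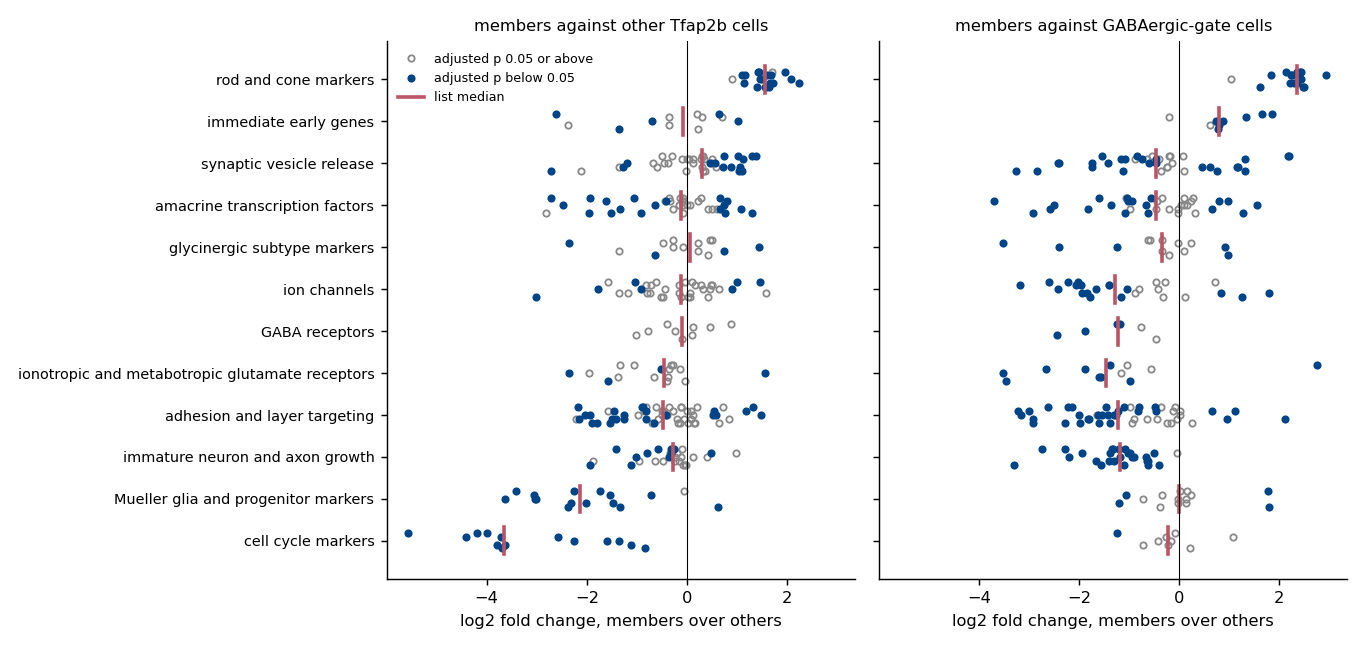
Log2 fold changes of members over other Tfap2b cells and over GABAergic-gate cells (axis in log2 units) for the genes of 12 lists. Each point is a gene, filled where the adjusted p was below 0.05, and the red bar is the list's median, with genes at 0 in members not drawn. Rod and cone markers sit highest in both comparisons, with medians of 1.57 and 2.35, while immature neuron genes lie low against the GABAergic gate, with 26 of 27 called lower.

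Against all 39197 other kept cells, a mixture of retinal cell types whose make-up changes with age, 547 of 13578 genes were higher in members (4.03%) and 1252 lower (9.22%). Lamp5 (3.15 ± 0.28 (SE), adjusted p = 8.22e-11), Neurod2 (2.60), Ptf1a (2.59) and Prdm13 (2.46) were among the higher genes, as were Ebf3 (1.61), Ebf1 (1.52) and Calb2 (1.66). Every member had to carry Tfap2a or Tfap2b, while 6785 of the 39197 other cells had Tfap2b. The rule thus favours higher genes of amacrine cells here, Slc32a1 included. In all 11 of 43 amacrine transcription factors were higher and 7 lower, and 4 of 17 glycinergic subtype markers higher and 1 lower. Slc32a1 (1.71 ± 0.33 (SE), adjusted p = 0.000268) and Slc6a5 (2.57 ± 0.89 (SE), adjusted p = 0.0489) were higher, the only ones of 8 tested genes of glycine transport and receptors. The Slc6a5 call rests on few molecules, 0, 4, 0 and 4 UMIs, with none in P3 replicate 2. Rod and cone markers were higher in 18 of 20, with a median of 1.00 beside -0.10 over all genes. All 14 cell cycle and 15 of 16 Müller glia and progenitor markers were lower. The rule favours both directions, since cells with Mki67, Rlbp1, Gad1 or Gad2 were barred from the members and not from the other cells. In P6 Crx, Nrl or Otx2 was carried by 75.0% of members and 77.4% of the other cells. Without P3 replicate 1, P3 replicate 2 or P6 the calls numbered 707, 2297 and 842 in place of 1799, and without the library block 0, with 1576 at an unadjusted p below 0.05.

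The calls against the GABAergic gate were also read in cells free of photoreceptor factors. Members without Crx, Nrl or Otx2 (10, 24 and 19 cells in P0, P3 replicate 1 and P6) were set against GABAergic-gate cells without them, with no test. Among 2079 genes at 100 CPM or more in either group, 66 were at least 2-fold higher by the mean of these libraries and higher in each of the 3 (3.17%), and 76 were lower by the same measure (3.66%). Of the 826 genes called higher against the whole gate, 198 reached that level, and 143 of these had a ratio of the mean levels above 1, with 23 higher by the 2-fold measure, 1 lower and 174 neither. Of the 964 called lower, 434 reached it, and 94 of these had a ratio above 1, with 66 lower by that measure, 1 higher and 367 neither. The 2-fold measure is not the test behind the calls: it uses P0 in place of P3 replicate 2, asks for 1 direction in every library and rests on few cells, so neither does not mean a lost difference. The summed rod and cone markers were 109, 133, 159.9 and 336 CPM in these members and 52.1, 160.4, 258 and 289.6 CPM in these gate cells.

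The genes that were higher in members free of photoreceptor factors included precursor and subtype factors of the amacrine lineage. Prdm13 was at 784, 428, 32.1 and 664 CPM against 112, 168, 33.0 and 86.9 CPM, a ratio of 5.12 over P0, P3 replicate 1 and P6. Ptf1a, which acts before Prdm13, was at 511, 125 and 251 CPM against 84.0, 63.2 and 34.2 CPM in these 3 libraries (ratio 4.88). In P3 replicate 2, with 5 cells, Ptf1a was at 0 UMIs and Prdm13 was not higher. Ebf1 was at 182, 205, 641 and 714 CPM against 42.3, 105, 259.8 and 105 CPM (ratio 4.36) and at 48.2, 5.73, 76.0 and 13.4 CPM in the photoreceptor gate. Tcf4, a basic helix-loop-helix partner, was at 529, 1481, 706 and 2229.9 CPM against 132, 716, 236 and 606 CPM (ratio 2.92), and Calb2, encoding calretinin, had a ratio of 4.12. Neurod4 (4.96) and Nfib (3.76) had high ratios too, but the photoreceptor gate also carried both, at 608, 946, 254 and 598 CPM and 173, 256, 286 and 260.0 CPM. Of 23 amacrine transcription factors at this level, 6 were higher and 7 lower, and of 8 glycinergic subtype markers 3 were higher (Nfib, Calb2 and Ebf1) and 1 lower (Gria3). Over all genes at this level 3.17% were higher and 3.66% lower. Further genes with high ratios were Cldn5 (7.84), Gamt (7.09), Klc3 (6.97), Rgs16 (6.91), Chodl (6.04), Ndrg1 (5.78), Btg2 (4.66) and Cabp1 (3.44). Cldn5 is best known from endothelial cells, Gamt makes creatine Cabp1 is a calcium-binding protein of neurons and Btg2 is an immediate early gene.

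The summed markers of ganglion cells and of horizontal cells were also higher in these members than in the gate cells in P0 and P6, beyond their counting intervals. The 14 ganglion cell markers, a list that also holds Ebf1, summed to 3459, 1363, 3005 and 1827 CPM in members free of photoreceptor factors against 1041, 1234, 2449 and 1072 CPM in the gate cells. In the cells with Gad RNA that met the other conditions and lacked photoreceptor factors the sum was 3161, 1641, 1213 and 2105 CPM. Tubb3, a tubulin of young neurons in general, made up 135 of the 191 UMIs of this list in the members of P0, and Ebf1 57 of 147 in P6. Of the defining ganglion cell factors, Pou4f1 gave 5, 0, 4 and 0 UMIs in these members, Pou4f2 0, 0, 1 and 0, and Pou4f3 none, while Sncg gave 13, 0, 25 and 0. The 9 horizontal cell markers outside the rule summed to 887, 664, 224 and 634 CPM in these members and 437, 394, 524 and 370 CPM in the gate cells. This sum was thus higher in members in P3 replicate 1 as well, and lower in P3 replicate 2. Lhx1, Onecut1, Onecut3 and Calb1 were at 0 UMIs in these members in every library, and the sum came from Onecut2, Tpm3, Prox1, Ndrg1 and Sept4. The part of ganglion and horizontal cell RNA in these ratios was not tested.

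Immediate early genes, which can respond to the dissociation of a tissue, also differed between members and the gate. Against the whole GABAergic gate 7 of 9 were higher and 0 lower, with a median log2 fold change of 0.79, beside 10% higher and 11.7% lower over all genes. Against other Tfap2b cells 2 of 12 were higher (Ier3 and Btg2) and 3 lower (Fosb, Fos and Egr1), beside 5.14% and 8% over all genes. Against all other kept cells 0 of 15 were higher and 4 lower, beside 4.03% and 9.22%. In cells free of photoreceptor factors 3 of 4 were at least 2-fold higher in members than in the gate (Btg2, Ier2 and Egr1), with a median ratio of 3.04, beside 3.17% of all genes. In the Slc6a9 cells with Gad RNA, described further on, 2 of 3 were (Ier2 and Egr1), with a median of 2.57, beside 3.45% of all genes. Their part in the other differences was not tested.

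Lamp5 was found in many of these cells but not in every library. It was at 0, 589, 321 and 526 CPM in members free of photoreceptor factors, 0, 41.6, 51.6 and 6.60 CPM in members with them, 1.34, 87.3, 75.1 and 105 CPM in gate cells without them and 0.317, 1.91, 2.35 and 1.64 CPM in the photoreceptor gate. No UMI was seen in the 10 cells of P0, which is why Lamp5 did not count among the 66 genes. A Lamp5 UMI was present in 0 of 10, 13 of 24, 4 of 5 and 9 of 19 cells, against 0.156%, 0.703%, 1.94% and 0.424% of photoreceptor-gate cells. Neurod2 gave the same order from P3 on, at 0, 553, 641 and 188 CPM against 4.01, 95.4, 94.6 and 47.4 CPM in gate cells without photoreceptor factors.

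Genes that were lower in members free of photoreceptor factors included Lhx9 and Meis2. Meis2 had been listed as a marker of glycinergic amacrine cells, so its lower level goes against that list. Lhx9 was at 0, 17.8, 96.2 and 0 CPM against 189, 240.0, 107 and 277 CPM, and Meis2 at 693, 232, 1379 and 125 CPM against 2238, 1598, 915 and 1881 CPM (ratio 0.184). In P3 replicate 2 Lhx9 was close to the gate and Meis2 was above it. Of the 2 markers of starburst and other GABAergic subtypes at this level Lhx9 was lower, while Gal, a neuropeptide, had a ratio of 32.2 on 23 UMIs, of which 17 lay in 1 cell of P0 and 6 in 1 cell of P6. The ratios to the gate were Gria3 (0.171), Sema6a (0.182) and Slc6a11 (0.230), an AMPA receptor subunit, a guidance molecule and a GABA transporter, with 4 UMIs of Gria3 and 5 of Slc6a11 behind them. In P0 Slc6a11 was at 54.7 CPM in members and 57.3 CPM in the gate, and Gria3 at 18.2 and 26.4 CPM, so the low ratios of these 2 genes come from P3 replicate 1 and P6. The potassium channel partner Kcnip1 had 1 UMI and the adhesion molecule Tenm1 had 3 in these members, against 856 and 438 in the gate. Pax6 (1571, 1227, 1141 and 1164 CPM in the gate) and Slc32a1 (54.7, 98.1, 257 and 175 CPM in members and 75.7, 141, 97.6 and 248 CPM in the gate, ratio 0.707) lay on neither side. The 26 immature neuron genes at this level had a median ratio of 0.845 to the gate, beside 1.01 over all genes, and Stmn2 (0.477) was the one lower by the 2-fold measure. For all members against the whole gate the median of that list was a log2 fold change of -1.18.

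**Figure D4:**
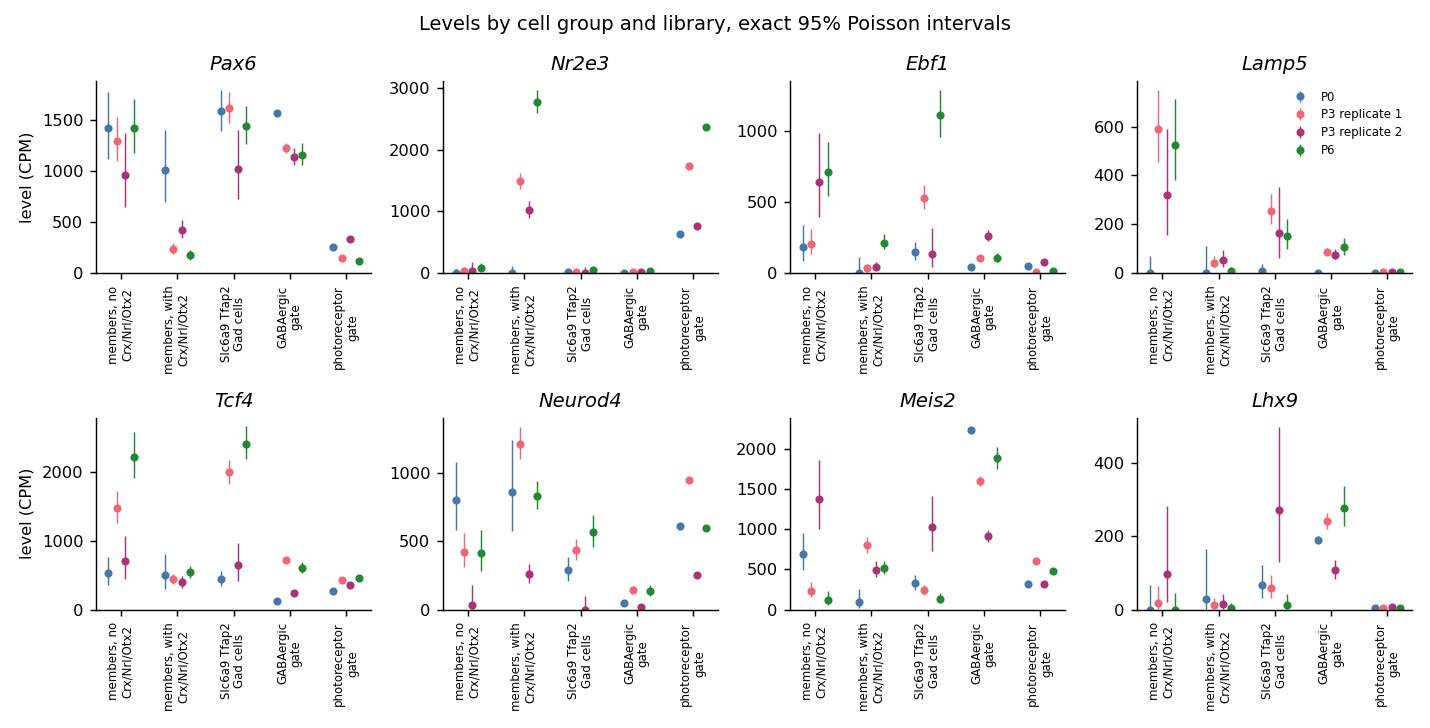
Levels (CPM of summed UMIs, with exact Poisson 95% intervals) of 8 genes in 5 groups of cells, with a point for each postnatal library. Pax6, Ebf1, Lamp5 and Tcf4 are higher in members without photoreceptor factors than in members with them from P3 on, Nr2e3 is the reverse, and Meis2 and Lhx9 are highest in the GABAergic gate in P0, P3 replicate 1 and P6.

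Several of these subtype genes were also high in cells that the Gad1 and Gad2 condition kept out. There were 21, 51, 6 and 30 cells with Slc6a9, a Tfap2 UMI and Gad1 or Gad2 that met all other conditions and had no Crx, Nrl or Otx2. Against the same gate cells (P0, P3 replicate 1 and P6), 70 of 2029 genes were higher by the same measure (3.45%) and 98 lower (4.83%). The ratios were Calb2 (7.99), Ebf1 (7.11), Ebf3 (6.29), Nfib (5.79), Cabp1 (4.97), Prdm13 (4.65), Neurod4 (3.90), Ptf1a (3.71), Cplx3 (3.68), Prox1 (3.55) and Lamp5 (2.12), and 6 of 8 glycinergic subtype markers were higher. Ebf1 was at 146, 531, 135 and 1119 CPM in these cells and Tcf4 at 439, 1999, 649 and 2419 CPM. Not all of these genes set amacrine cells apart from photoreceptors here. Cplx3 was found in 118 of 168 members with photoreceptor factors and in 32 of 58 without them. The photoreceptor gate also carried Nfib and Neurod4. The ratios leave out P3 replicate 2, with 6 cells, where Prdm13 and Ebf3 were found in 0 cells. There Ebf1 lay below the gate cells and Tcf4 above them. The ratios on the lower side included C1ql1 (0.0256), C1ql2 (0.0283), Cbln2 (0.0780), Slc6a11 (0.0877), Meis2 (0.122) and Gria3 (0.202), and Slc32a1 was at 26.6, 104, 54.0 and 48.1 CPM (ratio 0.385). Meis2 was thus below the GABAergic gate in P0, P3 replicate 1 and P6 in Slc6a9 cells with and without Gad RNA, but in P3 replicate 2 it was above it in both, at 1379 CPM without Gad RNA and 1027 CPM with it against 915 CPM in the gate.

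The subtype genes did not all fall in the same cells. Of the 58 members free of photoreceptor factors, 25 had an Ebf1 UMI, 26 a Lamp5 UMI and 10 both. Neurod2 was found in 27, and 20 of the 26 Lamp5 cells had it. Prdm13 was found in 30 and Ptf1a in 15, all of which also had Prdm13, while 1 cell had both Lamp5 and Ptf1a. Ebf3 was found in 12 cells, of which 10 had Ebf1 and 2 had Lamp5. Among the 108 such cells with Gad RNA, 67 had Ebf1, 80 had Prdm13 and 59 had both, and of 33 with Lamp5 and 33 with Ptf1a only 3 had both. Among the 168 members with photoreceptor factors, 18 had Ebf1, 9 Lamp5, 20 Neurod2 and 19 Prdm13. These counts pool libraries and ages and follow detection at low depth, so an absent UMI does not show an absent gene. Further subtype markers were too rare to place: Gjd2 gave 0, 4, 1 and 6 UMIs in all members, Neurod6 0, 0, 0 and 5 and Slc17a8, the transporter of glutamatergic amacrine cells, 0, 0, 0 and 0.

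Across ages photoreceptor genes led those that were higher in P6 than in P0 among members. Ages are described here without a test, since P0 and P6 have 1 library each. Of 4388 genes, 471 were at least 2-fold above P0 in P6 with both P3 libraries between (10.7%), and 237 the other way (5.4%). Pdc, the photoreceptor phosducin, was at 45.2, 1268, 487 and 2249.6 CPM, 49.8 times higher in P6 on 4 UMIs in P0, and Rom1, with 2 UMIs in P0, was at 22.6, 811, 1055 and 1343 CPM. Nr2e3 and Sag had 0 UMIs in P0 and stood at least 65.2-fold and 40.2-fold higher in P6, against a floor of 3 counts in the P0 sum. Of 16 rod and cone markers 10 were in this direction. Photoreceptor factors were carried by 5 of 15 members in P0 and by 57 of 76 in P6, so the make-up of the members differed between these ages. In the other direction, Dcx, a microtubule protein of young neurons, gave 14, 4, 10 and 1 UMIs (158, 8.91, 40.9 and 2.61 CPM), 60.5-fold higher in P0 on 1 UMI in P6. The keratin Krt73 gave 35, 11, 2 and 0 UMIs, at least 50.4-fold higher in P0. Of 25 immature neuron genes 8 were higher in P0 and 1 in P6, and of 30 amacrine transcription factors 8 were higher in P0 (Pax6 and Barhl2 among them) and 2 in P6 (Prox1 and Nfix). In members free of photoreceptor factors Pax6 gave 1423, 1303, 962 and 1428 CPM, with no such order. Tcf4 and Ebf1 were higher in P6 than in P0 in these cells (529, 1481, 706 and 2229.9 CPM and 182, 205, 641 and 714 CPM), on 10 cells in P0 and 19 in P6.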

How the data were processed

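Live cells of wild type retina were run on 10x Genomics, and the authors deposited UMI counts per gene and cell, not normalized, made with Cell Ranger on mm10 per the submitters' processing notes (version 6.1.2 in a file header). No column of per-sample values was left out. P3 replicate 2 had another annotation, so the 27040 gene identifiers shared by all libraries were used. Kept cells had 300 to 6000 genes and at most 15% mitochondrial UMIs (the study's own gene limit was 4000). Doublets were scored with 2 artificial doublets per cell and 30 neighbours, at 0.8% per 1000 cells, and were kept in. The members and the 24 gene lists were chosen with earlier results of these data known.

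Counts were summed per library and cell group, with at least 20 cells a sum, and tested in edgeR 4.0.16 (R 4.3.3) by the quasi-likelihood test with TMM scaling, filterByExpr, the library as a block and a Benjamini-Hochberg threshold of 0.05. The block pairs the 2 sums of a library, which share retinas and run. The 9 genes of the rule were not tested. Named genes were the 12 in each direction with the largest fold change among called genes with the same direction in every library and at least 50 CPM in the higher group, apart from unnamed, ribosomal and mitochondrial genes; 10 in each direction across ages; and list genes. In simulated data 54%, 52% and 42% of genes changed 2-fold were recovered against other Tfap2b cells, all other cells and GABAergic-gate cells. At 1.5-fold 8%, 6% and 4% were, and at 4-fold 100%. The changed genes had 60 or more expected member UMIs. The simulation gave every gene the same dispersion, set by hand and not estimated from these libraries, so recovery in the real data may differ. Nothing says that the P3 libraries come from separate litters, so p-values speak for these libraries only. They measure how far the difference between the 2 sums of a library varied from library to library.

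Alternatives were DESeq2 1.42.0, upper-quartile factors, every gene with a count, no block, the stricter gene limit, doublets removed, thinned counts and each library left out. Promoter windows come from the RefSeq table on GRCm38.p6, gene positions from GENCODE on GRCm38, matched by symbol. A comparison within the members by subtype markers, and results on some genes, are not reported here.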

Additional observations from a re-analysis of the deposited data

Results flagged for a closer look

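The embryonic libraries were used in no comparison, and 5 cells of E14 and 6 cells of E16 met the same rule as the postnatal members. They made up 0.0321% of the 15553 kept cells of E14 and 0.221% of the 2714 of E16. Crx, Nrl or Otx2 was found in 3 of the 5 and in 4 of the 6, against 168 of 226 postnatal members.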

How the results depend on the processing

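With DESeq2 in place of edgeR the calls numbered 772 against other Tfap2b cells, 967 against all other cells and 773 against GABAergic-gate cells, in place of 1543, 1799 and 1790, and the share of higher calls against all other cells went from 30.4% to 41.8%. After thinning to 2000 UMIs they numbered 667, 822 and 866. Without the replicate block, which pairs the sums of a library, they numbered 0, 0 and 394, with 1295, 1576 and 1327 genes at an unadjusted p below 0.05. Leaving out a library gave 686 to 1572, 707 to 2297 and 1098 to 1483 calls, the fewest without P3 replicate 1 in each comparison. Adding P0 with sums of 10 or more cells, an alternative chosen after seeing the data, gave 1246, 1858 and 1346. The cause was not tested. No gene called in the reported fits was called in the opposite direction under any of these settings. Of the list and named genes, 3 had an estimate of opposite sign in members against all other cells: Thy1 at 1.16 (log2) with DESeq2, Pou4f1 between -1.85 and 0.76 and Apoe between -0.82 and 0.070 on leaving out a library, the positive values without P3 replicate 2 and without P6, none of the positive values called. The member share depended on the threshold and, from P3 on, on depth. With 2 or more Slc6a9 UMIs it was 0.00961%, 0.0650%, 0.0964% and 0.125% in the 4 postnatal libraries. Thinned it was 0.513%, 0.642% and 0.246% from P3 on, while in P0 it was 0.148% against 0.144% unthinned. Across ages 1449 genes differed with 2 or more Slc6a9 UMIs, in place of 708, but that count sets 1 cell of P0 against 17 of P6. The tests against other cells with that threshold were not run, since 1, 8, 3 and 17 members were left. The 3 tested libraries, and members with mostly 1 Slc6a9 UMI, limit every level here. A single Tfap2 UMI was all that 130 of the 226 members had, and 11 of the 58 without photoreceptor factors.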
